A study of Mus musculus with 6 samples.

Results

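The *Hox* genes and the limb identity factors *Tbx4*, *Tbx5* and *Pitx1* were read from bulk RNA-seq libraries of the flexor digitorum longus (FDL) tendon of the mouse hindlimb. Every gene whose symbol names a HoxA, HoxB, HoxC or HoxD gene was taken, whatever its counts, and the 3 limb factors were added by name. That gave 42 genes (39 *Hox* genes and 3 limb factors) of the 53819 genes listed. The 3 DTR libraries came from mice with *Scx*-Cre and a floxed diphtheria toxin receptor allele (*Scx*-Cre+; DTR F/+), and the 3 WT libraries came from littermates without Cre (*Scx*-Cre-; DTR F/+). All animals, male and female, were 10 to 12 weeks old when the FDL tendon was cut and sutured. Both genotypes therefore carried the receptor allele, and both received 5 daily injections of diphtheria toxin (DT) from D14 to D18 after surgery. Tendons were harvested at D28, with 1 tendon per library. The sample titles count the 28 days from the depletion, and the time given in the methods is used here. Cre was driven by *Scx* (scleraxis, the transcription factor of tendon cells) without an inducible switch, so the receptor marked every cell that had ever expressed *Scx*, and the extent of the depletion in these 6 tendons is not known. The comparison asks how the healing tendon differs when that lineage was removed during repair.

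*Hox* genes encode homeodomain transcription factors that give cells along the body axis and along the limb their position. Mammals carry them in 4 clusters, which in the mouse (GRCm38, GENCODE vM21) lie on chromosomes 6 (HoxA), 11 (HoxB), 15 (HoxC) and 2 (HoxD), and genes at the same place in each cluster form a paralog group, counted from the anterior end (group 1) to the posterior end (group 13). In the limb bud the posterior genes of HoxA and HoxD pattern the segments from shoulder or hip to digits, and adult fibroblasts keep much of the pattern of their site of origin. *Pitx1* and *Tbx4* are the hindlimb factors and *Tbx5* is the forelimb factor, while posterior HoxC genes are expressed mainly in the hindlimb and anterior HoxC genes mainly in the forelimb.

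Between 42744138 and 48854310 counts fell on genes in each library. Counts were scaled by edgeR's TMM factors to the mean library size and are called normalized counts, and levels of different genes were compared only as normalized counts per kilobase (kb) of the median annotated transcript. The tendon marker list (10 genes, *Scx*, *Tnmd* and collagens among them) summed to between 52014 and 59690 CPM (counts scaled to a common library total) in WT and to between 59230 and 80178 in DTR libraries, so the labelled tissue was recognisable in every one. *Scx* itself had between 2203 and 3066 normalized counts in the WT libraries and between 3409 and 3534 in DTR libraries. The libraries did not hold the same neighbouring tissue. The skeletal muscle list summed to 27697, 24983 and 20107 CPM in WT replicates 1 to 3 and to 3457, 24445 and 6549 CPM in DTR replicates 1 to 3. The keratinocyte and hair list summed to 2991, 1833 and 17.2 CPM in WT and to 14.5, 17.4 and 302 CPM in DTR. Low-muscle libraries were thus DTR replicates 1 and 3, and skin transcripts stood out in WT replicates 1 and 2. In bulk tissue, fewer cells of a type and less RNA per cell cannot be told apart.

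**Figure D1:**
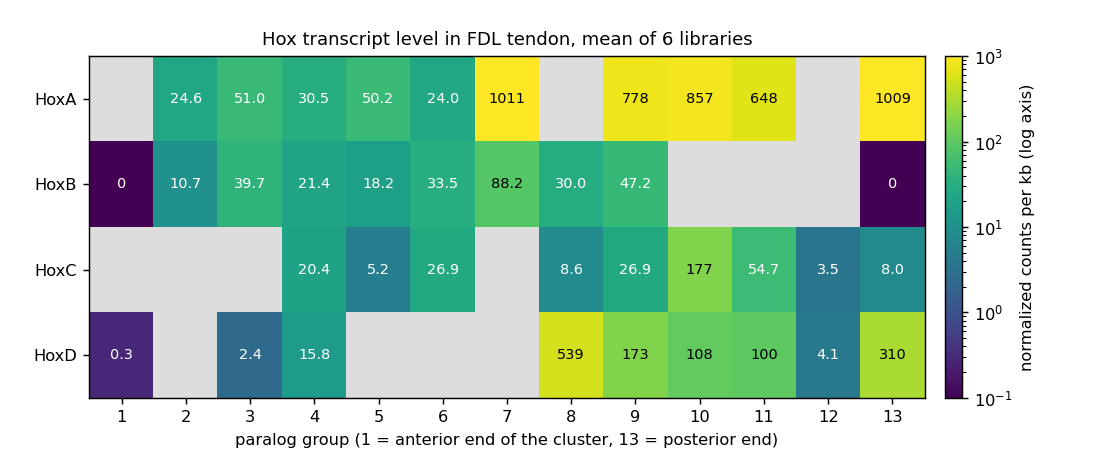
Mean level of each *Hox* gene over the 6 libraries in normalized counts per kb of median transcript (colour, log axis, value printed in the square), with the 4 clusters as rows and the paralog groups 1 to 13 as columns. Grey squares are positions with no gene or not shown, and *Hoxb1* and *Hoxb13*, both at 0, take the colour at the bottom of the scale. The brightest squares are groups 7, 9, 10, 11 and 13 of HoxA and group 8 of HoxD, followed by *Hoxd13*, *Hoxc10* and *Hoxd9*.

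In every library most of the *Hox* level came from HoxA and HoxD, from posterior genes and from *Hoxa7* and *Hoxd8*. Groups 1 to 8 gave 32.5% of the summed *Hox* level per kb. HoxA gave 70.6% of the summed *Hox* level per kb over the 6 libraries, HoxD 19.7%, HoxC 5.19% and HoxB 4.5%. At the head of the order stood *Hoxa7* with 1011 ± 110 normalized counts per kb (SD over the 6 libraries), *Hoxa13* with 1009 ± 174, *Hoxa10* with 857 ± 67.5, *Hoxa9* with 778 ± 130.2 and *Hoxa11* with 648 ± 97.2. *Hoxa7* and *Hoxa13* did not differ beyond their spread, nor did *Hoxa10* and *Hoxa9*, while *Hoxa11* lay below *Hoxa7* by more than the spread of both. The order turned on the transcript length: per kb of the longest transcript *Hoxa10* led with 668 and *Hoxa7* was the last of the 5 with 406. *Hoxd8* followed with 539 ± 151 and *Hoxd13* with 309.9 ± 87.0, then *Hoxc10* with 177 ± 59.0 and *Hoxd9* with 173 ± 36.0. The last pair did not differ beyond the spread over both genotypes, but their order changed between libraries. *Hoxc10* had 245, 227 and 200 in WT replicates 1 to 3, and *Hoxd9* 135, 157 and 215. In DTR replicates 1 to 3, *Hoxc10* had 137, 163 and 87.3, and *Hoxd9* 219, 143 and 171. *Hoxd10* with 108 ± 35.2 and *Hoxd11* with 100.5 ± 40.3 were likewise within their spread. *Hoxb7*, the HoxB gene with the highest level, had 88.2 ± 24.0.

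Of the 42 genes, 31 had at least 10 counts in every library and 35 passed edgeR's filter on low counts. The 7 that did not pass were *Hoxb1*, *Hoxb13*, *Hoxc12*, *Hoxd1*, *Hoxd3*, *Hoxd12* and *Tbx5*. *Hoxb1*, an anterior gene of the embryonic hindbrain, and *Hoxb13*, the most posterior gene of HoxB, had 0 counts in all 6 libraries. A count of 0 allows up to 3 counts per library, which is between 0.0614 and 0.0702 CPM and covers counting error only. *Hoxd1* had 3 counts in DTR replicate 1 and 0 in the others. *Hoxd3* had 0 to 10 counts, *Hoxc12* 2 to 5 counts and *Hoxd12* 6 to 23 counts. Group 12 was thus low in both its clusters, with *Hoxc12* at 3.53 and *Hoxd12* at 4.08 normalized counts per kb. *Hoxd12* lay between well read neighbours, while *Hoxc13*, beside *Hoxc12*, was itself low, with 4.79 to 45.7 normalized counts over the libraries.

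The genes of paralog groups 9 to 13, the groups that pattern the limb, gave 67.5%, 69.0% and 67.1% of the summed *Hox* level per kb in WT replicates 1 to 3. In DTR replicates 1 to 3 they gave 64.3%, 70.9% and 66.1%. The groups overlapped, and the means of 67.9% ± 1.02 and 67.1% ± 3.41 (SD, n = 3 each) differed by less than the spread of the DTR libraries. The difference was -0.78 percentage points (p = 0.8 by an exact permutation test of 3 against 3, which cannot go below p = 0.1).

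The hindlimb factors were read in all libraries and the forelimb factor was near the detection limit. *Tbx4* had 618, 703 and 653 normalized counts in the WT libraries and 658, 599 and 618 in DTR replicates 1 to 3. *Tbx5* had 10.2, 6.60 and 14.6 in WT and 6.19, 9.57 and 9.25 in DTR, which were 6 to 14 counts per library. Within each library *Tbx4* had between 44.9 and 107 times the counts of *Tbx5*, and per kb the means were 213 and 2.38. *Tbx4* had the smallest spread beside its level of the limb factors. Its fitted log2 fold change, DTR minus WT, was -0.07 with a 95% confidence interval from -0.32 to 0.17. *Pitx1*, which acts before *Tbx4* in the hindlimb bud, had 185, 247 and 253 normalized counts in the WT libraries and 393, 213 and 229 in DTR. DTR replicate 1 stood above all other libraries and the other DTR libraries lay among the WT values. The fitted log2 fold change was 0.29 (SE 0.27, adjusted p = 0.71 by edgeR's quasi-likelihood test with Benjamini-Hochberg adjustment).

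**Figure D2:**
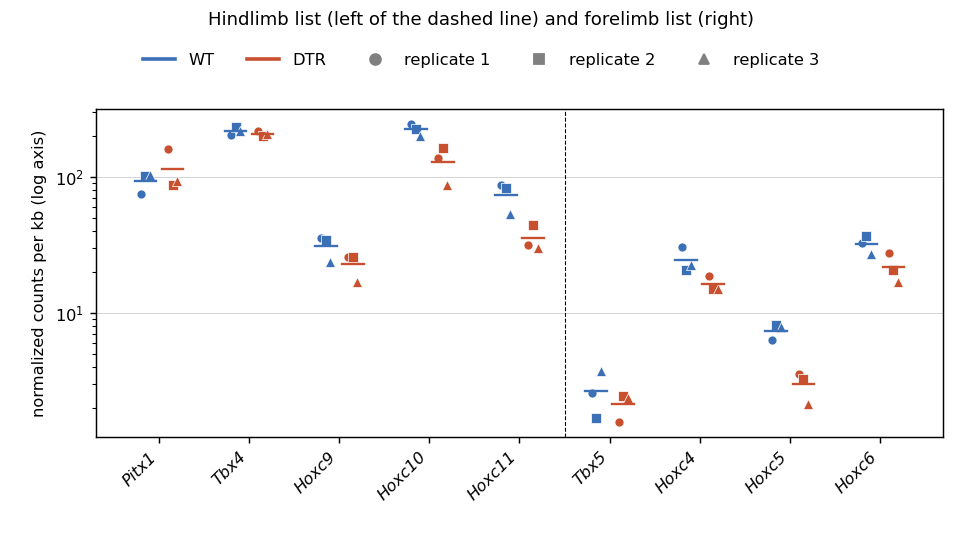
Normalized counts per kb (log axis) in each library for genes of the hindlimb list, left of the dashed line, and the forelimb list, right of it, with WT and DTR side by side, a marker shape for each replicate and a line at the group mean. *Tbx4* (mean 213) and *Hoxc10* (mean 177) stand highest, *Tbx5* (mean 2.38) lowest, and the DTR points of *Hoxc10* and *Hoxc11* lie below all WT points. *Hoxc6* (mean 26.9) and *Hoxc4* (mean 20.4) of the forelimb list lie near *Hoxc9* (mean 26.9) of the hindlimb list.

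In the comparison of the genotypes, edgeR's quasi-likelihood test with Benjamini-Hochberg adjustment called 0 of the 35 genes tested, with adjusted p from 0.34 to 0.97, and 0 of all 17496 genes (0%). At an unadjusted p under 0.05, 2 of the 35 were higher in DTR (*Hoxd10* and *Hoxd11*), beside 5.52% of all genes, and 6 were lower (*Hoxa3*, *Hoxb2*, *Hoxc5*, *Hoxc10*, *Hoxc11* and *Hoxc13*), beside 5.45%. DESeq2 called 2 of the 35, *Hoxc10* and *Hoxc11*, beside 2.65% of all genes, and both were lower in DTR, beside 1.53% of all genes called lower and 1.12% called higher. limma-voom called 0. Counting libraries, 10 genes were lower in every DTR library than in any WT library, beside 7.85% of all genes, and 3 were higher in every DTR library (*Hoxb4*, *Hoxd10* and *Hoxd11*), beside 8.96%. Of the 10, 3 were HoxA genes (*Hoxa3*, *Hoxa4* and *Hoxa5*), 2 were HoxB genes (*Hoxb2* and *Hoxb9*) and 5 were HoxC genes (*Hoxc4*, *Hoxc5*, *Hoxc10*, *Hoxc11* and *Hoxc13*). By fitted sign 25 of the 35 were lower, beside 48.5% of all genes, and 10 were higher, beside 51.5%, with a median log2 fold change over the 35 of -0.20, beside 0.01 over all genes tested.

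**Figure D3:**
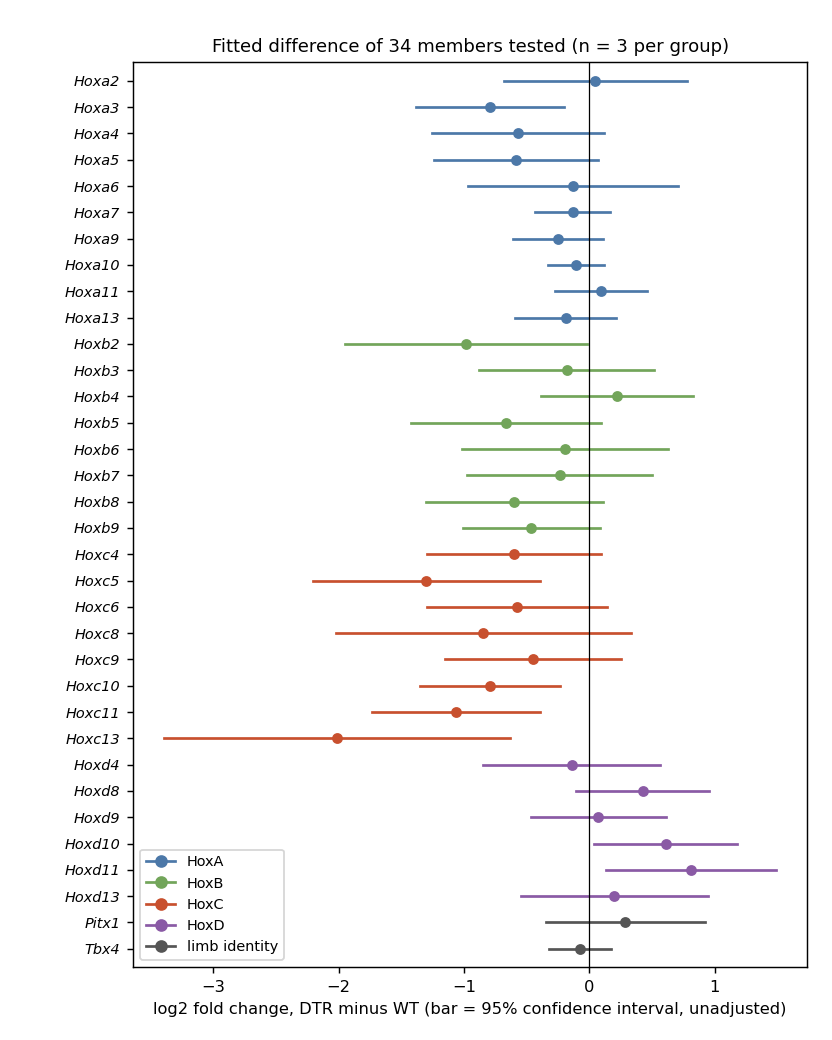
Fitted log2 fold change (DTR minus WT, points) with its unadjusted 95% confidence interval (bars) for 34 of the 35 genes tested, ordered by cluster and paralog group and coloured by cluster, n = 3 per genotype. All 8 HoxC points lie left of 0, with a median of -0.82, while 5 of the 6 HoxD points lie right of it, with a median of 0.31.

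The clusters did not share 1 direction. HoxA had 3 genes fitted higher and 8 lower (median log2 fold change -0.13), HoxB 1 higher and 7 lower (median -0.35), HoxC 0 higher and 8 lower (median -0.82) and HoxD 5 higher and 1 lower (median 0.31). Summed over its genes, HoxC had 934, 865 and 687 normalized counts in the WT libraries and 497, 553 and 366 in DTR. The HoxD sum was 1949, 2306 and 2265 in WT and 2982, 2592 and 2567 in DTR. Both sums separated the genotypes without overlap, and in opposite directions. The DTR mean was 0.57 of the WT mean for HoxC (472 ± 96.1 against 829 ± 127, SD, n = 3 each) and 1.25 of it for HoxD (2714 ± 233 against 2173 ± 195). The separation of the HoxD sum depends on *Hoxd13*, without which the sum was 1240.1, 1385 and 1745 in WT and 2457, 1577 and 1640.0 in DTR and overlapped. The sum over all *Hox* genes was 11253 ± 946 in WT and 10650 ± 177 in DTR, a difference within the WT spread. Of the summed level per kb, HoxC gave 6.46% ± 1.42 in WT and 3.91% ± 0.868 in DTR, and HoxD gave 16.7% ± 0.238 in WT and 22.7% ± 2.83 in DTR (SD, n = 3 each). Without *Hoxd13* the HoxD share was 11.7%, 11.3% and 13.9% in WT and 22.5%, 14.9% and 14.6% in DTR, still without overlap. HoxA, the cluster with most counts, ran from 6810 to 8223 in WT and from 6746 to 7327 in DTR, with overlap. HoxB ran from 473 to 719 in WT and from 449 to 513 in DTR, also with overlap.

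**Figure D4:**
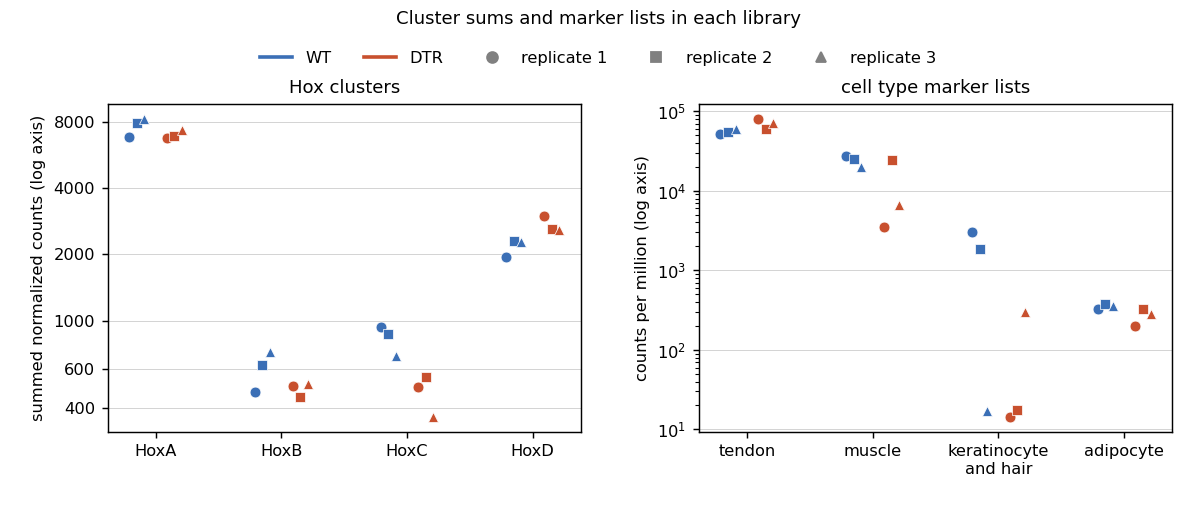
Left, summed normalized counts (log axis) of each *Hox* cluster in each library, and right, the summed CPM (log axis) of marker lists for tendon, skeletal muscle, keratinocyte and hair, and adipocyte, with WT and DTR side by side and a marker shape for each replicate. HoxC lies between 687 and 934 in WT and between 366 and 553 in DTR, and the keratinocyte and hair list is high (2991 and 1833 CPM) in WT replicates 1 and 2.

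HoxC carried the genes with the largest fitted differences. *Hoxc10*, a posterior gene with a role in hindlimb outgrowth and motor neurons, had 467, 432 and 383 normalized counts in the WT libraries and 262, 312 and 167 in DTR. *Hoxc11*, its posterior neighbour, had 175, 167 and 107 in WT and 63.9, 90.0 and 60.7 in DTR. Neither overlapped between the genotypes. The log2 fold change of *Hoxc10* was -0.79 (SE 0.24, adjusted p = 0.354 by edgeR's quasi-likelihood test, 0.0465 by DESeq2). For *Hoxc11* it was -1.06 (SE 0.29, adjusted p = 0.34 by edgeR's quasi-likelihood test, 0.0351 by DESeq2), so the call of both genes depends on the tool. Since neither gene overlapped, WT replicate 3, with 17.2 CPM of keratinocyte and hair transcripts, was bound to lie above every DTR library. DTR replicate 2, with muscle transcripts at the WT level, was likewise bound to lie below every WT library. That order is therefore no separate evidence, and the part of skin and muscle in these values was not tested. Fitted against WT replicate 3 alone, the log2 fold changes were -0.46 and -0.58.

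*Hoxc13*, known for its expression in hair follicles and nails, had 45.7, 37.7 and 11.4 normalized counts in the WT libraries and 8.25, 4.79 and 10.3 in DTR. The groups did not overlap, but the high WT values were those of replicates 1 and 2, the libraries with skin transcripts. Its log2 fold change was -2.01 (SE 0.59, adjusted p = 0.354 by edgeR's quasi-likelihood test) and -0.55 against WT replicate 3 alone. Without *Hoxc13*, the HoxC sum was 889, 827 and 676 in WT and 489, 548 and 356 in DTR, and the DTR mean was 0.582 of the WT mean.

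The anterior HoxC genes, the forelimb side of the cluster, were lower too by fitted sign. *Hoxc5* had 18.3, 23.6 and 22.9 normalized counts in the WT libraries and 10.3, 9.57 and 6.17 in DTR, with a log2 fold change of -1.30 (SE 0.39, adjusted p = 0.354 by edgeR's quasi-likelihood test). *Hoxc4* had 63.0, 42.4 and 45.8 in WT and 38.2, 30.6 and 30.8 in DTR. Neither of these overlapped between the genotypes. *Hoxc6* had 51.8, 58.4 and 42.6 in WT and 43.3, 32.5 and 26.7 in DTR, where DTR replicate 1 reached the lowest WT value. *Hoxc9*, a gene of the hindlimb list, had 84.3, 81.0 and 56.2 in WT and 60.8, 61.3 and 40.1 in DTR. WT replicate 3 lay within the DTR range of *Hoxc9*, and the groups overlapped. *Hoxc8* ran from 16.6 to 27.4 in WT and from 7.22 to 19.5 in DTR. The log2 fold changes of these 4 ran from -0.84 to -0.45 with unadjusted 95% confidence intervals that included 0. *Hoxc8* went to -1.46 and *Hoxc9* to -0.27 without DTR replicate 3, and *Hoxc9* was -0.05 against WT replicate 3 alone. In GENCODE vM21, *Hoxc10* shares 8.7% of its exonic bases with *Hoxc5* on the same strand, so the counts of this pair carry that uncertainty.

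**Figure D5:**
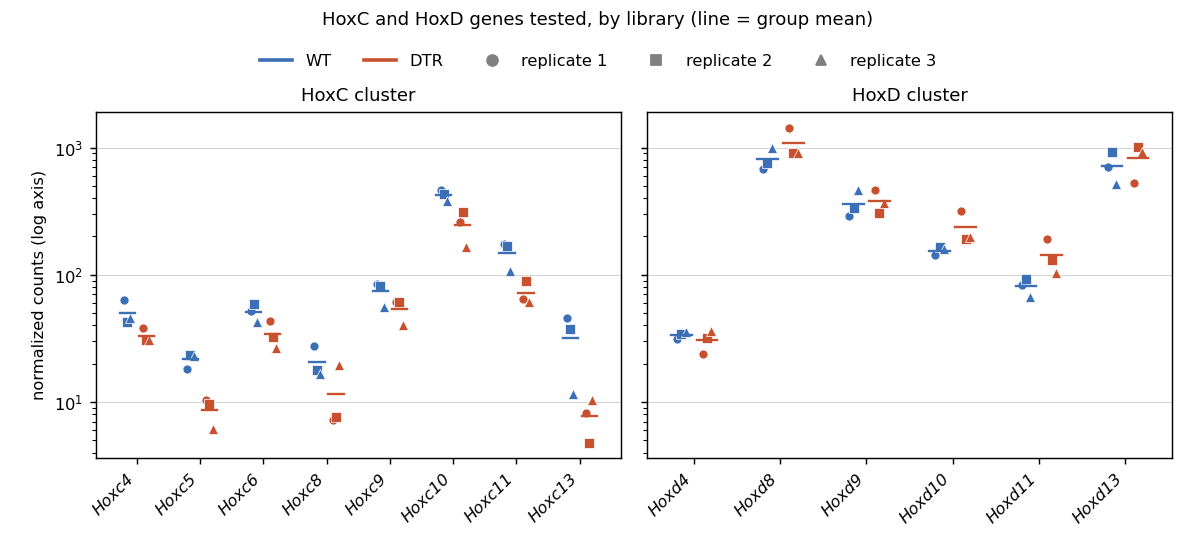
Normalized counts (log axis) of the HoxC and HoxD genes tested in each library, with WT and DTR side by side, a marker shape for each replicate and a line at the group mean. In HoxC the DTR means lie below the WT means at all 8 genes, and in HoxD every DTR point of *Hoxd10* (189.5 to 319) and *Hoxd11* (104 to 192) lies above the WT points (142 to 164 and 66.6 to 93.3).

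In HoxD the genes without overlap between the genotypes were *Hoxd11* and *Hoxd10*, which lie next to each other on chromosome 2. Promoter sequences of this pair are shown for that reason. Each run is the 250 bases before a RefSeq start (GRCm38.p6, plus strand), in lower case with the dinucleotide CG in capitals. The window of *Hoxd11* shown, at its downstream start, is chr2:74682073-74682322, and that of *Hoxd10* is chr2:74691641-74691890.
Hoxd11: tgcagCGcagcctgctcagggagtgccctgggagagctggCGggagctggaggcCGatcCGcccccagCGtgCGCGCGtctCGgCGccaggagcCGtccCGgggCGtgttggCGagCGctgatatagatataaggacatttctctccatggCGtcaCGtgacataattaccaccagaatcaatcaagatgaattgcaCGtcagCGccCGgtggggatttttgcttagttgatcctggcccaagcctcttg
Hoxd10: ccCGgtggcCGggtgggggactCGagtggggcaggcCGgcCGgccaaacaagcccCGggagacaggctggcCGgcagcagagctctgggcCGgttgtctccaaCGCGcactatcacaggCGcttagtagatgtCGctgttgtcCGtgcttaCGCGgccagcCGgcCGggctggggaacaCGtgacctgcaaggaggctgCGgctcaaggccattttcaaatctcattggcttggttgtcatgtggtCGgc
These windows hold 20 CG each, a number that 17.9% of all 32851 promoter windows in the table reach. The window at the upstream start of *Hoxd11* holds 2, which 81.2% reach. The windows of the next genes hold 13 for *Hoxd9*, which 31.5% reach, and 6 for *Hoxd8*, which 50.4% reach. Over the 24 windows of 22 *Hox* genes in the table the median was 12.5 CG, from 2 to 35, beside a median of 6 over all windows, and 19 of the 24 lay above that median.

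*Hoxd10*, which patterns the hindlimb segments and its motor neurons, had 142, 164 and 158 normalized counts in the WT libraries and 319, 189.5 and 199 in DTR. *Hoxd11*, which with *Hoxa11* patterns the middle limb segment, had 83.3, 93.3 and 66.6 in WT and 192, 131 and 104 in DTR. Every DTR library was above every WT library for both, and DTR replicate 1 was above the other DTR libraries. The log2 fold change was 0.61 for *Hoxd10* (SE 0.25, adjusted p = 0.447 by edgeR's quasi-likelihood test) and 0.81 for *Hoxd11* (SE 0.29, adjusted p = 0.418 by the same test). Without DTR replicate 1, these values were 0.33 and 0.53. In GENCODE vM21 *Hoxd11* shares 10.8% of its exonic bases with a gene on the same strand, so its counts carry that uncertainty.

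*Hoxd8*, the HoxD gene with the highest level per kb, had 683, 753 and 993 normalized counts in the WT libraries and 1436, 910.2 and 914 in DTR. DTR replicate 1 stood apart, and WT replicate 3 was above the other DTR libraries. The log2 fold change was 0.43 (95% confidence interval -0.11 to 0.96) and fell to 0.17 without DTR replicate 1. *Hoxd9* ran from 288 to 459.7 in WT and from 305 to 467 in DTR, and *Hoxd13*, the gene of the digits, ran from 520.0 to 921 in WT and from 525 to 1015 in DTR, both with overlap. *Hoxd4* ran from 31.5 to 35.4 in WT and from 23.7 to 36.0 in DTR. It shares 52.3% of its exonic bases with *Hoxd3* and another gene on the same strand, so counts of these genes are uncertain.

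Ratios taken within a library carry no normalization between libraries. The counts of *Hoxd10* over those of *Hoxc10* were 0.304, 0.379 and 0.413 in WT and 1.217, 0.607 and 1.20 in DTR. For *Hoxd11* over *Hoxc11* they were 0.477, 0.559 and 0.621 in WT and 3.00, 1.46 and 1.71 in DTR. Both ratios were bound to be higher in every DTR library, since the HoxD genes lay above and the HoxC genes below all WT libraries. *Hoxa10* over *Hoxc10* was 3.41, 4.23 and 4.99 in WT and 6.61, 5.29 and 9.44 in DTR. *Hoxa11* over *Hoxc11* was 7.05, 7.60 and 16.9 in WT and 25.6, 17.1 and 23.2 in DTR. None of these 4 ratios overlapped between the genotypes. They share the HoxC genes chosen above for their difference, and *Hoxd10* and *Hoxd11* were chosen in the same way, so the ratios are no separate evidence. Of *Hoxd9* over *Hoxc9* and *Hoxd8* over *Hoxc8* the ranges overlapped.

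The abundant HoxA genes showed small fitted differences, with intervals that all included 0. *Hoxa10*, which patterns the upper leg, had 1593, 1829.7 and 1910.5 normalized counts in the WT libraries and 1730.3, 1651 and 1572 in DTR. The interval of its log2 fold change ran from -0.33 to 0.12. *Hoxa11* had 1232, 1267 and 1806 in WT and 1639, 1538 and 1409 in DTR, with an interval from -0.27 to 0.46. For both, a difference of 1 on the log2 scale lay outside the interval. *Hoxa13*, the digit gene of HoxA, had 1218, 1639 and 1366 in WT and 982, 1478 and 1244 in DTR. *Hoxa9* had 1506, 1837 and 1825 in WT and 1346, 1226 and 1781 in DTR. *Hoxa7* had 824, 882 and 856 in WT and 767, 664 and 904 in DTR. All of these overlapped between the genotypes. The intervals ran from -0.59 to 0.21 for *Hoxa13*, from -0.61 to 0.11 for *Hoxa9* and from -0.43 to 0.16 for *Hoxa7*. *Hoxa11* shares 35.0% of its exonic bases with the antisense gene *Hoxa11os*, and *Hoxa7* shares 20.4% with genes on the other strand. Whether counting used strand is not given in the sources used here, so reads from both strands cannot be told apart at these genes.

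Among the anterior HoxA genes, *Hoxa3* had the largest fitted difference. It had 156, 179 and 167 normalized counts in the WT libraries and 82.5, 79.4 and 129 in DTR, without overlap, and a log2 fold change of -0.79 (SE 0.25, adjusted p = 0.377 by edgeR's quasi-likelihood test). It shares 25.4% of its exonic bases with genes on the other strand. *Hoxa4* had 67.0, 66.0 and 41.6 in WT and 39.2, 39.2 and 39.1 in DTR. *Hoxa5*, best known from lung and skeletal patterning, had 103, 104 and 133 in WT and 55.7, 73.7 and 96.6 in DTR. Neither overlapped, though WT replicate 3 was close to the DTR values for *Hoxa4*, and both intervals included 0. *Hoxa2* had 43.7, 33.0 and 52.0 in WT and 39.2, 38.3 and 55.5 in DTR, and *Hoxa6* ran from 16.6 to 28.4 in WT and from 16.5 to 22.0 in DTR. Both overlapped between the genotypes.

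HoxB genes were low and mostly overlapped. *Hoxb2* had 17.3, 25.4 and 27.0 normalized counts in the WT libraries and 7.22, 14.4 and 13.4 in DTR, without overlap and with a log2 fold change of -0.99 (SE 0.41, adjusted p = 0.452 by edgeR's quasi-likelihood test). It shares 27.3% of its exonic bases with *Hoxb3os* on the other strand, which was also lower in every DTR library (log2 fold change -0.62), and these reads cannot be told apart. *Hoxb9*, the most posterior HoxB gene read here, had 119.8, 125 and 152 in WT and 88.7, 83.3 and 116 in DTR. Its highest DTR value came close to the lowest WT value. *Hoxb4* had 53.8, 41.5 and 57.2 in WT and 57.7, 59.3 and 60.7 in DTR, so the DTR values lay just above the WT values, and its interval ran from -0.38 to 0.83. *Hoxb7* had 77.2, 141 and 151 in WT and 131, 87.1 and 95.6 in DTR. *Hoxb6* had 42.7, 63.1 and 70.7 in WT and 58.8, 32.5 and 62.7 in DTR. In both, WT replicate 1 was the low WT library and the groups overlapped. *Hoxb3*, *Hoxb5* and *Hoxb8* ran from 24.7 to 144 over all libraries, with overlap at each and log2 fold changes from -0.67 to -0.18. *Hoxb3* shares 52.9% of its exonic bases with *Hoxb3os* on the other strand.

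The partners and regulators of the *Hox* genes were read from lists of their own. *Hox* proteins bind DNA together with TALE homeodomain cofactors (the Pbx, Meis, Pknox and Tgif families), and 11 of 11 were tested. Of these, 8 were fitted higher and 3 lower, and none had an unadjusted p under 0.05. *Pbx2* had 1654 ± 93.7 normalized counts (SD, n = 3 per genotype) in the WT tendons and 1767 ± 130.4 in the DTR tendons, with overlap.

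Trithorax and polycomb proteins hold *Hox* genes active or silent. All 26 of the list were tested, 16 were fitted higher and 10 lower, and edgeR called 0, while 4 had an unadjusted p under 0.05, beside 11% of all genes, and DESeq2 called 1, beside 2.65%. *Rnf2*, the ubiquitin ligase of polycomb repressive complex 1, had a log2 fold change of 0.31 (SE 0.08) and *Bmi1*, its partner, 0.22 (SE 0.08), and every DTR library was above every WT library for both. *Cbx7*, a subunit that reads the polycomb mark on histone H3, had 1113, 1173 and 1089 normalized counts in the WT libraries and 613, 927 and 668 in DTR. That gave a log2 fold change of -0.61 (SE 0.16, adjusted p = 0.321 by edgeR's quasi-likelihood test, 0.0349 by DESeq2), without overlap. *Ezh1*, a histone methyltransferase of the second polycomb complex, had -0.24 (SE 0.09) with overlap. The most counted genes of the list were *Cbx6*, with 4636 ± 664 normalized counts in the WT libraries and 5615 ± 420.3 in DTR, and *Phc2*, with 3952 ± 293 and 3713 ± 873. For *Cbx6* too every DTR library was above every WT library, while *Phc2* overlapped. Of the 26 genes, 3 were higher without overlap, beside 8.96% of all genes, and 2 were lower, beside 7.85%.

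Of 32 limb patterning genes, 25 were tested, 10 were fitted higher and 15 lower. edgeR and DESeq2 called 0, and 4 had an unadjusted p under 0.05, beside 11% of all genes. *Gli3*, the repressor arm of hedgehog signalling, had a log2 fold change of 0.25 (SE 0.09), *Tbx18* 0.29 (SE 0.10), *Twist1* 0.33 (SE 0.14) and *Dlx5* -0.67 (SE 0.25). *Prrx1*, a marker of limb mesenchyme, had 16891 ± 3467 normalized counts in the WT libraries and 19041 ± 3206 in DTR, and *Tbx15* had 8711 ± 604 and 7478 ± 1335, both with overlap.

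Noncoding genes of the *Hox* clusters were sparse. Of 21 listed, 17 were in the count table and 8 were tested, 4 fitted higher and 4 lower, with no unadjusted p under 0.05 and no DESeq2 call. The most counted were *Hoxa11os*, from 386 to 487 normalized counts over all libraries, and *Hoxd3os1*, from 151 to 224. *Hotair* and *Hottip*, transcripts of the HoxC cluster and of the end of HoxA, were named after their values were seen. *Hotair* had 80.2, 43.3 and 54.1 in WT and 14.4, 65.1 and 35.0 in DTR. *Hottip* had 88.4, 124 and 57.2 in WT and 14.4, 74.7 and 43.2 in DTR. Both overlapped between the genotypes, and DTR replicate 1 was the lowest library for each.

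Markers of other cell types differed between the libraries, and their part in the *Hox* values was not tested. All 8 adipocyte markers were fitted lower (median log2 fold change -2.27), beside 48.5% of all genes, though *Lpl* was at -0.0044 and *Fabp4* at -0.27. Of these, 6 were lower without overlap, beside 7.85% of all genes, and DESeq2 called 4 lower, beside 1.53%. The adipocyte list summed to 325, 383 and 359 CPM in WT and to 199, 328 and 285 in DTR. The Schwann cell list summed to between 593 and 1083 CPM in WT and between 433 and 767 in DTR, with 6 of 8 fitted lower. DESeq2 called 2 of the 8 lower (*Mbp* and *Ncmap*), and in the macrophage list it called 1 of 12 lower, *Cd163*. Beside these stand the 1.53% of all genes called lower. Of the skeletal muscle list 20 of 20 were fitted lower, and of the keratinocyte and hair list 15 of the 15 tested, with 0 at an unadjusted p under 0.05 in either. The macrophage list ran from 3824 to 4690 CPM over all libraries, the endothelial list from 641 to 814, the cartilage and bone list from 843 to 1327 and the lymphoid list from 14.4 to 29.6, all with overlap. Of the tendon list 9 of 10 were fitted higher, beside 51.5% of all genes, with 4 at an unadjusted p under 0.05, beside 5.52%. With both low-muscle DTR libraries left out, all 8 HoxC genes were fitted lower (median log2 fold change -0.73), and with both skin-rich WT libraries left out they were as well (median -0.54). At an unadjusted p under 0.05 there were 4 of the *Hox* and limb factor genes in the former fit, beside 609 higher and 603 lower of 18775 genes, and 0 in the latter, beside 331 higher and 268 lower of 18564. Each of these fits holds 1 library of a genotype, which is assumed to vary like the other group, so little can be read from the p-values. For the 5 HoxC genes without overlap between the genotypes, leaving out libraries could hardly turn the direction.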

How the data were processed

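RNA was taken from 6 FDL tendons (3 WT, 3 DTR), and libraries were made from 200 ng each. The authors demultiplexed with bcl2fastq 2.19.0, cleaned reads with FastP 0.20.0 and counted them per gene with featureCounts of subread 1.6.4, per the methods and the submitters' processing notes, and deposited whole-number counts without normalization. The aligner, genome build, annotation and strand setting are not given in the sources used here. A second deposited table holds a signal, the same counts divided by 1 size factor per library by the authors (DESeq2 1.22.1), and its whole reads were recovered. It served as an alternative only. Deposited fold changes or p-values were not used.

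The counts were tested in R 4.3.3 with edgeR 4.0.16 (filterByExpr, TMM, robust quasi-likelihood fit with genotype as the single term, Benjamini-Hochberg adjustment over all 17496 genes tested, threshold 0.05). Standard errors were obtained from the fold change and the F statistic of each gene. The test was checked on simulated counts drawn with edgeR's own dispersions. Of 99 genes changed by 1 on the log2 scale edgeR called 57, and of 99 changed by 2 it called 83. Its false calls were 13. DESeq2 called 66 of 98 and 91 of 99, with 67 false calls. Alternatives were DESeq2 1.42.0, limma 3.58.1 (voom, and log2(value + 1) of the deposited signal), RLE, upper quartile and library size scaling, no filter, a minimum of 10 counts in all libraries, a block for the replicate number, leaving out each library, and other transcript lengths. After the data were seen, both skin-rich WT libraries or both low-muscle DTR libraries were left out together, and exonic bases not shared with another gene were used as a length.

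All 42 genes and 92.8% of all symbols were found in GENCODE vM21, the source of transcript lengths and overlaps. Promoter sequences are from RefSeq (GRCm38.p6), whose table matched 23 of the 42 genes. The genes and lists described here were chosen with earlier results of these data known. Genes named in full were those highest per kb in a cluster or paralog group, the limb factors, the hindlimb and forelimb lists, and those with an unadjusted p under 0.05 or no overlap. From other lists, genes with an unadjusted p under 0.05 and the 2 with most counts were named. Genes that fall under this rule but are not named are not reported here. Depth was 42744138 to 48854310 counts per library, and replicate libraries differed by a chi-square of 40.4 to 206 per degree of freedom, so none was a duplicate. Floors for counts of 0 cover counting error only, and n = 3 biological samples per genotype limits the precision.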

Additional observations from a re-analysis of the deposited data

How the results depend on the processing

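With 3 libraries per genotype, edgeR's quasi-likelihood test called 0 of 17496 genes, and 1918 had an unadjusted p under 0.05. DESeq2 called 466 genes (197 higher, 269 lower), 2 of them *Hox* genes. Without a filter on low counts edgeR called 83 genes, and with the replicate number as a block 1 gene. Leaving out single libraries gave 0 to 544 genes, the highest without DTR replicate 2. None of these edgeR fits called any of the 35 *Hox* and limb factor genes. Same-numbered libraries correlated at -0.68 to -0.15 in their deviations from the group means, and none correlated best with its own number. Deviations within 3 libraries are tied to one another, so these values cannot decide whether the replicate numbers pair the libraries. Of 34 genes followed one by one, 25 kept their direction under every one of the 17 alternatives that fitted them, the 8 HoxC genes and *Hoxd8*, *Hoxd10*, *Hoxd11* and *Hoxd13* among them. All alternatives reuse the same 6 libraries, and for genes without overlap between the genotypes leaving out libraries could hardly turn the direction. With at least 10 counts in every library, 5 HoxC genes were fitted. Without both skin-rich WT libraries the log2 fold change turned for *Hoxa2* (-0.23), *Hoxa6* (0.27), *Hoxa11* (-0.24) and *Hoxd9* (-0.28). Without both low-muscle DTR libraries it turned for *Hoxa2* (-0.17), *Hoxa6* (0.00075), *Hoxa13* (0.0651), *Hoxd9* (-0.25) and *Pitx1* (-0.10). Leaving out single libraries gave ranges across 0 for *Hoxa2* (-0.14 to 0.21), *Hoxa6* (-0.29 to 0.10), *Hoxa11* (-0.0072 to 0.29), *Hoxb3* (-0.38 to 0.0845), *Hoxb6* (-0.38 to 0.0478), *Hoxd4* (-0.28 to 0.0039), *Hoxd9* (-0.11 to 0.28) and *Pitx1* (-0.0480 to 0.45). The share of groups 9 to 13 differed by -2.68 to 0.62 percentage points, the latter without DTR replicate 1, and by -0.31 with unshared exonic bases as length. The cause of these changes was not tested. Counts under 15 per library limit *Tbx5*, *Hoxc12* and *Hoxd3*.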

Other observations

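*Hoxd13* had its 3 highest values, 921 normalized counts in WT replicate 2, 1015 in DTR replicate 2 and 927 in DTR replicate 3, in the same libraries that held *Xist*, the transcript of the inactive X chromosome in female cells. Those libraries had 46453, 51521 and 55607 normalized counts of *Xist*, and the other 3 had 3.05, 3.12 and 4.12. In these other libraries, WT replicates 1 and 3 and DTR replicate 1, *Hoxd13* had 709, 520.0 and 525. The libraries with *Xist* were thus spread unevenly over the genotypes, and the HoxD sum separated the genotypes only with *Hoxd13* included. The share of HoxD in the summed level per kb separated them without *Hoxd13* too. The methods name both sexes, the labels do not give the sex of a sample, this gene was picked after its values were seen, and no test was made.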
